A study of Sus scrofa with 6 samples.

Results

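HIF1A, the oxygen-regulated alpha subunit of hypoxia-inducible factor, was measured in pig femoral arteries together with 6 genes of glucose, glycogen and hypoxia metabolism: TPI1, GPI, PYGL, UGP2, VDAC1 and ADM. All probes whose design accession is a pig RefSeq transcript of these 7 genes were taken, which gave 19 of the 43603 probes on the array. HIF1A had 2 probes, TPI1 5, GPI 3, PYGL 1, UGP2 5, VDAC1 2 and ADM 1. The array named 2384 genes in all. The 7 genes were chosen by their measured difference between the groups compared here, so their differences are given as a description. Where the number of them past the threshold of a fit is given, it supports nothing, since the same contrast chose them.

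The arteries (Sus scrofa, femoral, sampled ex vivo at the puncture site) had been repaired with TAG, a vascular glue, in 3 samples and with Exoseal in the other 3. Exoseal is a marketed closure device that lays a bioabsorbable plug against the outside of the vessel. The labels give no untreated artery, no age or strain, and no statement on which samples came from separate animals, so errors measure the spread between these samples and may in part be technical. RNA was measured on 6 Agilent 1-colour arrays.

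Cells turn glucose into pyruvate by glycolysis and store glucose as glycogen, a branched polymer that is built from UDP-glucose and cut by glycogen phosphorylase. When oxygen is short, HIF1A escapes degradation, pairs with ARNT and switches on genes for glucose uptake, glycolysis and blood vessel tone. HIF1A is controlled mainly through the stability of its protein, which an RNA array does not measure. In the artery wall glycolysis supplies smooth muscle and endothelium, and it supplies most of the energy of the leukocytes that enter a wound.

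Exoseal replicate 1 was labelled Exoseal in its title and TAG in its treatment characteristic; the title was followed. It shared slide 1 with the 3 TAG arrays, while Exoseal replicates 2 and 3 shared slide 2. The TAG arrays were dimmer: the 75th percentile of the processed signal was 19.3 to 36.4 on TAG arrays and 61.0 to 151 on Exoseal arrays. The scanner flagged 37.4% ± 3.38 of probes as well above background in TAG and 64.3% ± 5.70 in Exoseal (SD over 3 arrays each). The exact two-sided permutation test over samples gave p = 0.1, the smallest this design allows. Levels below are log2 processed signal minus the 75th percentile of the same array, so a level of 0 is that percentile, and differences are TAG minus Exoseal. On this scale the lowest level flagged as well above background differed by group. It was -1.74 to -1.07 on TAG arrays and -5.085 to -2.42 on Exoseal arrays, so dim probes are not compared on equal terms. The standard errors of differences come from limma, a linear model fitted over all probes. A gene is described by its brightest probe, the one of highest mean signal, before its other probes. Levels of different probes cannot be ranked against each other, because each probe binds its target with its own efficiency.

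HIF1A was higher in TAG. Its brightest probe had levels of 1.504, 1.41 and 0.93 on TAG replicates 1, 2 and 3. On Exoseal replicates 1, 2 and 3 it had -2.19, -0.90 and -1.60. Every TAG array lay above every Exoseal array, by at least 1.83 log2 units. The group means were 1.28 ± 0.31 and -1.56 ± 0.65 (SD, n = 3 each), a difference of 2.84 ± 0.48 log2 units (standard error) or 7.17-fold. The other probe of HIF1A, A_72_P585741, had the same direction, with a difference of 1.69 ± 0.42. It had -0.70, -0.58 and -0.99 on TAG arrays and -2.07, -2.71 and -2.56 on Exoseal arrays, and was well above background on 2 of 3 TAG arrays. Both HIF1A probes thus separated the groups as titled without overlap. Exoseal replicate 1, whose labels conflict, had the lowest level of the brightest probe of all 6 arrays. Counted as TAG, it brought the difference to 1.66 and ended the separation. In a bulk sample such as these, fewer cells of a type and less RNA per cell cannot be told apart, for HIF1A as for the genes that follow.

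**Figure D1:**
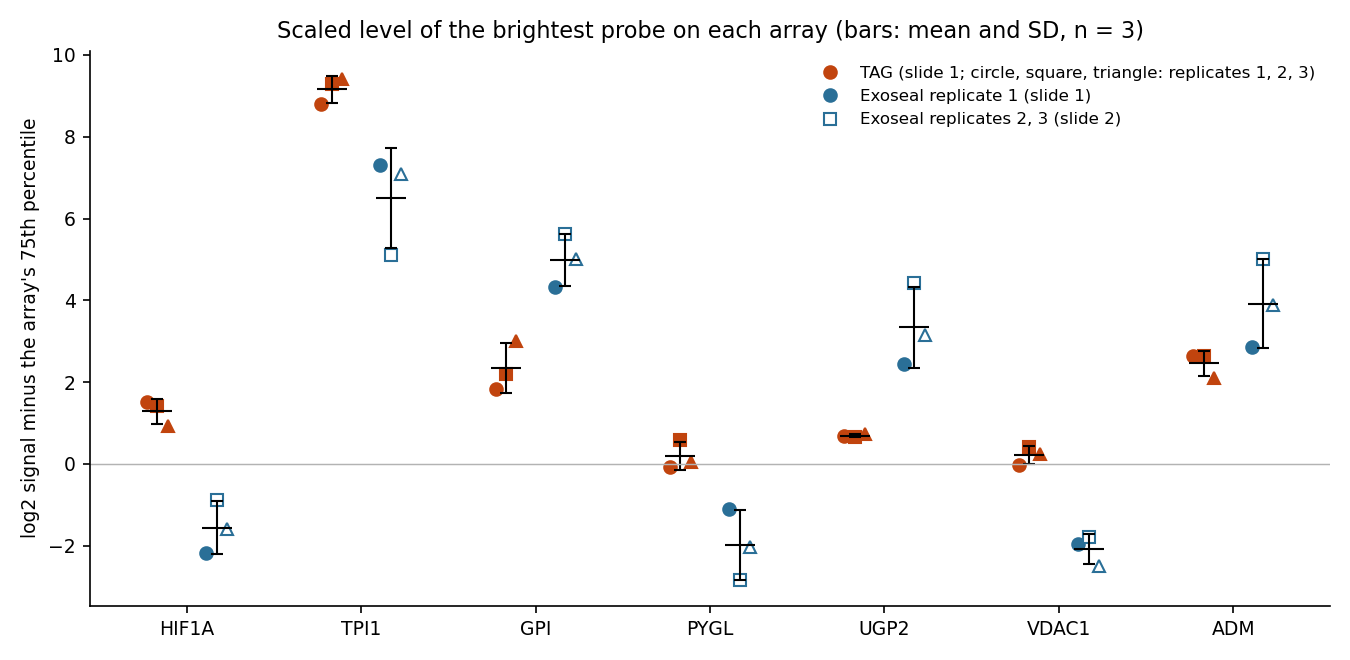
Scaled level (vertical axis, log2 processed signal minus the 75th percentile of the array) of the brightest probe of the 7 genes, with 1 point per array and the mean and SD (n = 3) as black bars. HIF1A, TPI1, PYGL and VDAC1 lie higher on the 3 TAG arrays, GPI, UGP2 and ADM lie higher on the 3 Exoseal arrays, and for ADM the groups are separated by the smallest gap.

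The pair of glycolytic isomerases went opposite ways by their brightest probes. TPI1, triosephosphate isomerase, interconverts both triose phosphates made by aldolase. Its brightest probe had 8.79, 9.28 and 9.41 on TAG arrays and 7.31, 5.10 and 7.09 on Exoseal arrays. The Exoseal arrays were all lower, and replicate 2 was the lowest. The difference was 2.66 ± 0.62, or 6.33-fold. GPI, glucose phosphate isomerase, interconverts the phosphates of glucose and fructose at the second step of glycolysis. Its brightest probe had 1.83, 2.20 and 3.01 on TAG arrays and 4.33, 5.61 and 5.004 on Exoseal arrays. Here every TAG array lay below every Exoseal array, with a difference of -2.64 ± 0.51, or 6.23-fold lower in TAG.

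The probes of these enzymes did not give 1 value per gene. The brightest TPI1 probe, A_72_P630003, had processed signals of 13125 to 16144 on TAG arrays and 5178 to 10839 on Exoseal arrays. The other 4 TPI1 probes had signals of 6.43 to 56.0 over the 6 arrays. The lowest signal that the scanner flagged as well above background was 4.44 to 12.8, depending on the array. Of these 4, A_72_P682691 (1.88 ± 0.58) and A_72_P303269 (1.37 ± 0.51) were higher in TAG on every array. A_72_P532638 (0.47 ± 0.49) and A_72_P073361 (0.36 ± 0.47) had groups that overlapped. GPI disagreed in sign. Besides its brightest probe, A_72_P440286, it had A_72_P458444 at 0.63 ± 0.44 with overlapping groups. Its remaining probe, A_72_P146806, reached that flag on 0 of 3 TAG arrays and 1 of 3 Exoseal arrays, so no difference is given for it. As the mean of its 3 probes, the dim one included, GPI had a difference of 0.13, so the lower level of GPI in TAG rests on A_72_P440286 alone.

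The genes on either side of glycogen also differed in opposite directions. PYGL encodes the liver form of glycogen phosphorylase, which releases glucose units from glycogen and is also made by leukocytes. Its single probe had -0.07, 0.59 and 0.05 on TAG arrays and -1.10, -2.83 and -2.03 on Exoseal arrays. All TAG arrays were higher, with a difference of 2.17 ± 0.53, or 4.51-fold. UGP2 makes UDP-glucose, the donor for glycogen and for several matrix sugars. Its brightest probe, A_72_P165756, had 0.68, 0.66 and 0.73 on TAG arrays and 2.44, 4.41 and 3.15 on Exoseal arrays. The TAG arrays were nearly identical (SD 0.03), and all lay below the Exoseal arrays (SD 1.00), with a difference of -2.65 ± 0.54, or 6.25-fold lower.

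All 5 UGP2 probes had a negative difference. A_72_P606238 had -2.47 ± 0.61, A_72_P581152 had -1.66 ± 0.56 and A_72_P557835 had -1.48 ± 0.66, each without overlap between the groups. The fifth, A_72_P427819, had -0.28 ± 0.57 with overlapping groups, reached the background flag on 0 of 3 TAG arrays, and turned positive without Exoseal replicate 1 (0.27), with that array counted as TAG (0.61), without TAG replicate 3 (0.0079) and with normexp background correction (0.55). Its levels were -2.55, -2.12 and -3.19 on TAG arrays and -1.25, -2.85 and -2.93 on Exoseal arrays.

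VDAC1 forms the main pore of the mitochondrial outer membrane and is a docking site for hexokinase. Its brightest probe, A_72_P035526, had -0.02, 0.42 and 0.23 on TAG arrays and -1.95, -1.79 and -2.50 on Exoseal arrays. The TAG arrays were higher without overlap, by 2.29 ± 0.42, or 4.89-fold, and by 1.81 with Exoseal replicate 1 counted as TAG. Its other probe, A_72_P574324, had 0.96 ± 0.69 with overlapping groups and was well above background on 1 of 3 TAG arrays. Against Exoseal replicate 1 alone, on the shared slide, that probe had -0.19, the opposite sign.

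ADM encodes adrenomedullin, a secreted vasodilator peptide whose transcript is induced by hypoxia in many cells. Its single probe had 2.63, 2.63 and 2.11 on TAG arrays and 2.86, 5.02 and 3.88 on Exoseal arrays. The Exoseal arrays were all higher, but replicate 1 stood close to the TAG arrays. The difference was -1.47 ± 0.58, or 2.76-fold lower in TAG, and -0.41 against Exoseal replicate 1 alone.

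**Figure D2:**
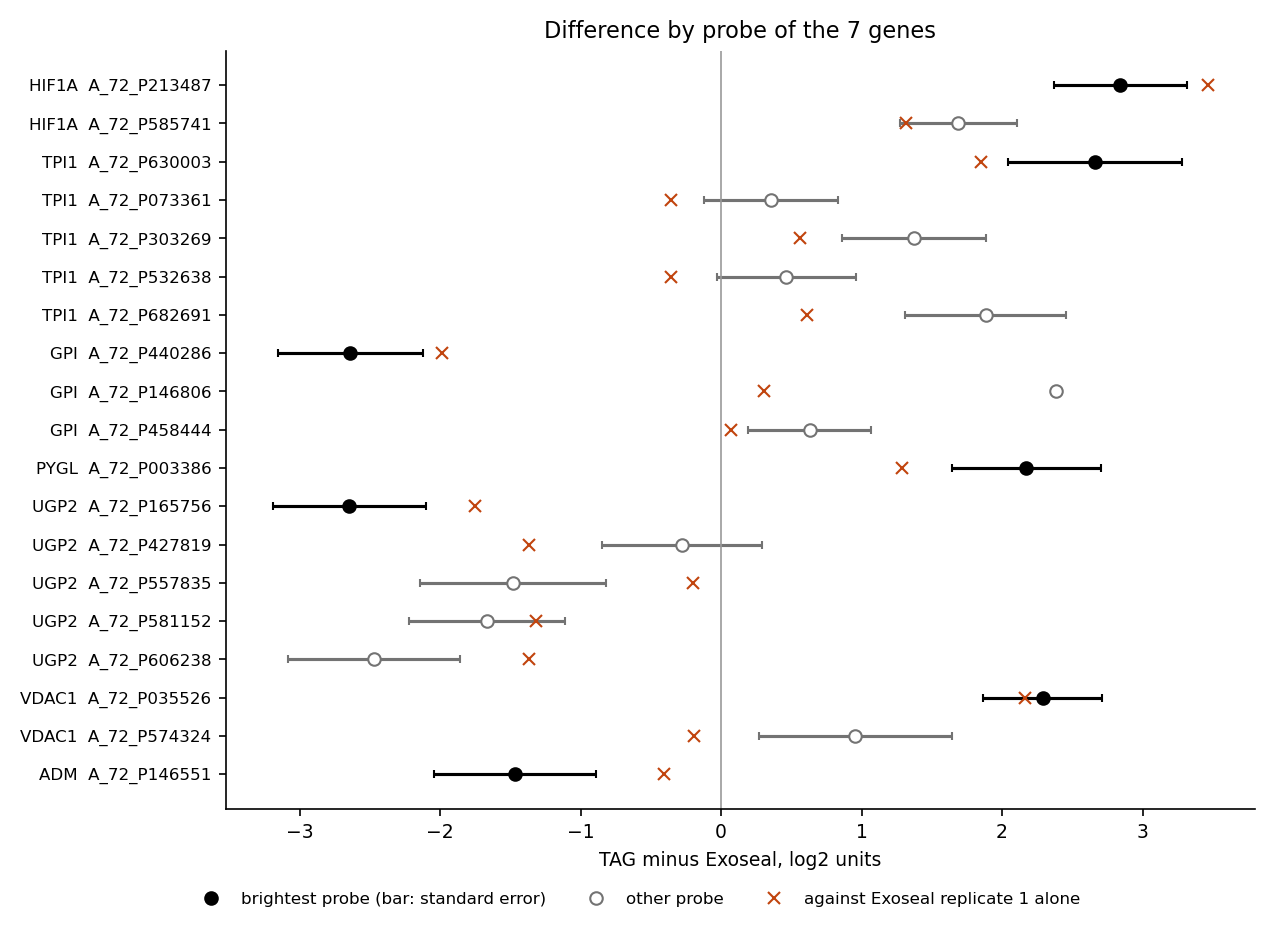
Difference between the groups (horizontal axis, TAG minus Exoseal in log2 units) for each of the 19 probes. Circles are means over 3 arrays per group with the standard error as a bar (none for A_72_P146806, which did not pass the filter), and crosses set the TAG arrays against Exoseal replicate 1 alone. All 5 UGP2 probes lie left of 0, both HIF1A probes lie right of it, and the GPI probes lie on both sides.

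Of the 19 probes, 18 were well above background on at least 3 arrays and entered the fit, 12 of them on all 6 arrays. Among the 18, 7 had a lower mean in TAG, beside 47.4% of all 22720 probes fitted. By brightest probe the groups did not overlap for any of the 7 genes, beside 35.7% of all features without overlap. The groups did not overlap for 13 of the 18, beside 36.4% of all probes fitted, and 8 passed an adjusted p of 0.05, beside 10.8%. By brightest probe 6 of the 7 genes passed in limma over 20857 features, beside 10.3% of all features. Of the 6, 4 were higher in TAG (6.59% of all features) and 2 were lower (3.67%), and ADM did not pass. These counts come from the contrast by which the genes were chosen, and nothing is read from them. Without Exoseal replicate 1 all 7 genes passed, in a fit where treatment and slide were the same split of the arrays and cannot be told apart. Without any 1 of the other 5 arrays 0 passed. In those 5 fits limma called 0 features, with 4081 to 5689 at an unadjusted p under 0.05. The median difference of the 7 genes was 2.17, and that of all features 0.03. The 7 went in both directions, so this median says only that 4 of the 7 were higher.

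The signals before scaling were also compared, since the TAG arrays were dimmer. TPI1 (13125 to 16144 against 5178 to 10839), GPI (118 to 155 against 1376 to 7369), UGP2 (32.0 to 58.2 against 371 to 3214) and ADM (83.0 to 225 against 497 to 4896) did not overlap between TAG and Exoseal arrays without any scaling. The other genes did overlap. HIF1A had signals of 103, 68.2 and 36.8 on TAG arrays and 15.03, 81.0 and 20.1 on Exoseal arrays. PYGL had 34.5, 38.6 and 20.0 against 31.9, 21.2 and 14.98. VDAC1 had 35.8, 34.5 and 22.7 against 17.7, 43.7 and 10.8. Some scaled Exoseal levels of these genes lay below the lowest level flagged on any TAG array, though flagged themselves. They were all those of VDAC1, those of PYGL on replicates 2 and 3 and that of HIF1A on replicate 1. The unscaled differences were 1.13 for HIF1A, 0.47 for PYGL, 0.58 for VDAC1 and 0.95 for TPI1, and -4.35 for GPI, -4.35 for UGP2 and -3.17 for ADM, beside a median of -1.67 over all features. The direction of each brightest probe was thus the same without scaling. This did not hold for the dimmer probes. The other HIF1A probe had -0.018 there, against 1.69 with scaling. Of the other TPI1 probes A_72_P303269 had -0.34, A_72_P532638 -1.24 and A_72_P073361 -1.35, and A_72_P682691 alone stayed above 0, at 0.18. GPI probe A_72_P458444 had -1.08 and VDAC1 probe A_72_P574324 -0.75, both positive with scaling. All 5 UGP2 probes were negative both as scaled here and without scaling.

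**Figure D3:**
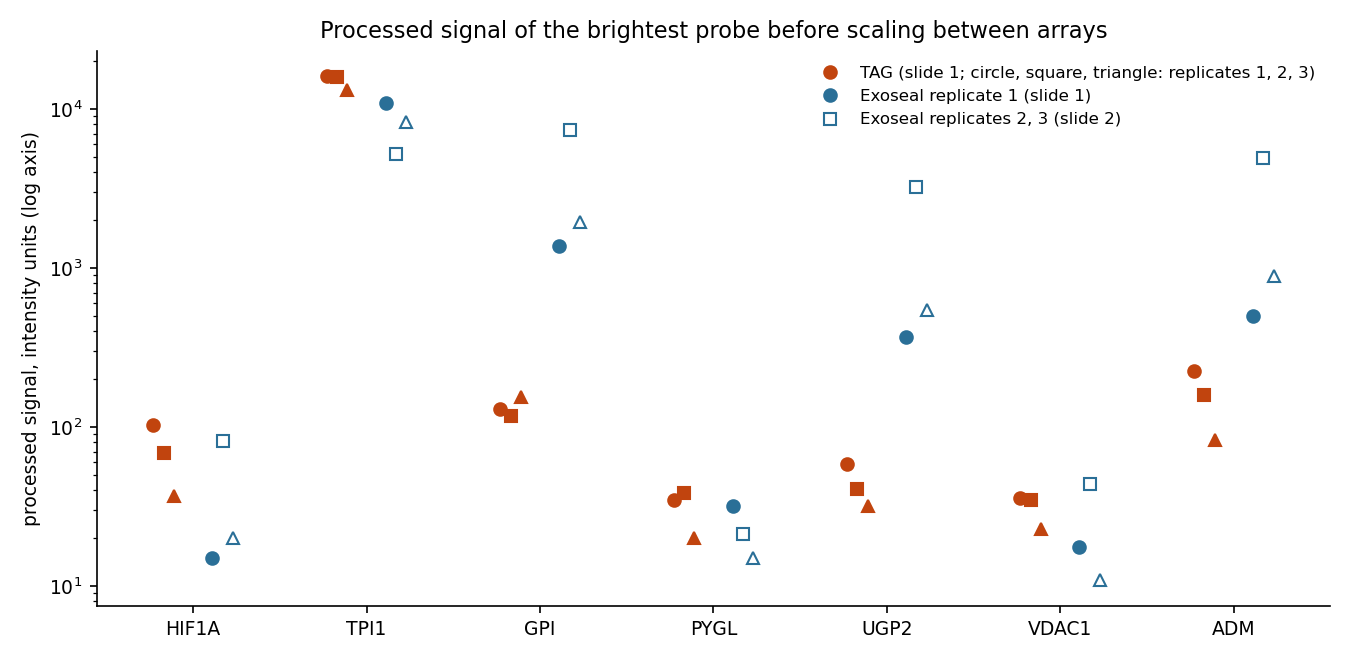
Processed signal (vertical log axis, intensity units) of the same 7 probes before any scaling between arrays, with 1 point per array. GPI, UGP2, ADM and TPI1 separate the groups, while for HIF1A, PYGL and VDAC1 at least 1 Exoseal array falls within or above the range of the TAG arrays and the others below it.

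A ratio of 2 genes within an array does not depend on scaling by 1 constant per array, as was done here. It can change with other processing. Quantile scaling gave TPI1 1.58 and GPI -2.72, against 2.66 and -2.64. Normexp background correction gave HIF1A 1.20 and GPI -3.13, against 2.84 and -2.64. The ratio of HIF1A to GPI was 44.6-fold higher in TAG, a change of 5.48 log2 units (SD over arrays 0.91 in TAG and 0.05 in Exoseal), and 5.45 against Exoseal replicate 1 alone. The ratio of TPI1 to GPI changed by 5.30 (SD 0.36 and 1.81), and by 3.84 on the shared slide. The ratio of PYGL to UGP2 changed by 4.82 (SD 0.37 and 1.86), and by 3.04 on the shared slide. The ratio of HIF1A to ADM changed by 4.31 (SD 0.05 and 0.44), and by 3.87 on the shared slide. In contrast the ratio of GPI to UGP2 changed by 0.01 (SD 0.57 and 0.39) and that of HIF1A to VDAC1 by 0.55 (SD 0.42 and 0.65), both with overlapping groups. All 6 ratios are by brightest probe.

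Slide and treatment were partly joined, since Exoseal replicates 2 and 3 had a slide to themselves. With Exoseal replicate 1 left out or counted as TAG they were fully joined, so results of those fits cannot be told from a slide difference. Against Exoseal replicate 1 alone, HIF1A had a difference of 3.47, VDAC1 2.16, TPI1 1.85 and PYGL 1.29, and GPI had -1.99, UGP2 -1.75 and ADM -0.41. A fit with slide as a block gave the same differences. On the shared slide TPI1 probes A_72_P532638 and A_72_P073361 both had -0.36, the opposite sign of their difference over all arrays. For 5 of the 7 genes Exoseal replicate 1 was the Exoseal array nearest to the TAG mean, beside 41.8% of all features. HIF1A and VDAC1 were the exceptions. The range over the Exoseal arrays was wider than that over the TAG arrays for all 18 probes in the fit, beside 77.6% of all probes.

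The rest of the pathway was followed through 133 other genes of glucose, glycogen and oxygen metabolism. The array named 43 of them, 28 passed the filter, and 2 passed an adjusted p of 0.05 over all features in limma, beside 10.3% of all features. Both belonged to the 6 tested of the list for glucose entry and glycolysis. SLC16A1, a carrier of lactate and pyruvate, rose by 2.95 ± 0.63 (adjusted p = 0.0287 in limma). It had -0.49, -0.19 and 0.12 on TAG arrays and -1.68, -3.92 and -3.79 on Exoseal arrays, of which 2 of 3 were well above background. Neither of its other probes passed the filter. A_72_P529580 was well above background on 0 TAG and 2 Exoseal arrays, and A_72_P280129 on 0 and 0. PFKM, the muscle form of phosphofructokinase, which commits sugar to glycolysis, fell by 1.93 ± 0.50 (adjusted p = 0.042 in limma). It had 1.19, 0.89 and 0.54 on TAG arrays and 1.97, 3.11 and 3.33 on Exoseal arrays. The other PFKM probe, A_72_P655810, was well above background on 0 TAG arrays and 1 Exoseal array and did not pass the filter. Neither gene passed with slide as a block (1.497 and -1.10, adjusted p = 0.107 and 0.236 in limma), nor as the mean of its probes (1.55 and 0.51), nor without any 1 of the TAG arrays or Exoseal replicates 2 and 3. In those 5 fits the adjusted p in limma ran from 0.0721 to 0.129 for SLC16A1 and from 0.0911 to 0.174 for PFKM. With normexp SLC16A1 had 1.01 and did not pass (adjusted p = 0.0778 in limma), and PFKM had -1.75 and did (0.041). Without Exoseal replicate 1, where treatment and slide were fully joined, 7 of the pathway genes passed. The median difference of the 6 genes was -0.66, and that of the 28 was 0.27.

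In the remaining lists no gene passed. For glycogen, GSK3B, a kinase that inhibits glycogen synthase, had 1.52 ± 0.44 (adjusted p = 0.0562 in limma) and GYS2, the liver form of glycogen synthase, -0.68 ± 0.69 (0.55), and each was well above background on 1 of 3 TAG arrays. EPAS1, the sister subunit HIF2A, was the single measured gene of the HIF subunits and oxygen sensors and had 0.50 ± 0.44 (adjusted p = 0.494 in limma). Its other probe, A_72_P133976, had 1.70, and each was well above background on 1 of 3 TAG arrays. Of 7 other hypoxia-induced genes, P4HA1, a collagen prolyl hydroxylase subunit, had -1.25 ± 0.50 by its brightest probe (adjusted p = 0.129 in limma). EDN1, the vasoconstrictor endothelin precursor, had 1.45 ± 0.61 (0.146). P4HA1 had 7 probes and, like GPI, no common sign: A_72_P302594 had -1.44, while A_72_P175781 and A_72_P596444 had 1.98 and 1.95 and passed in the fit over probes. VEGFA, a hypoxia target for vessel growth, reached the background flag with neither of its 2 probes on TAG arrays and with 1 probe on 1 Exoseal array. The single probe of HK2, a hypoxia target that traps glucose, reached it on 0 of 6 arrays. They are named here for their low signal, a choice made after the values were seen.

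The adrenomedullin receptor subunits RAMP2 and RAMP1 had 0.46 ± 0.48 and 0.27 ± 0.52, with adjusted p = 0.558 and 0.765 in limma. None of the 3 probes of their partner CALCRL reached the background flag on any of the 6 arrays. Among mitochondrial genes SLC25A6, an adenine nucleotide carrier, had 1.66 ± 0.49 (adjusted p = 0.0602 in limma) and TSPO, an outer membrane protein, -1.20 ± 0.44 (0.104). The other SLC25A6 probes ran from -0.22 (A_72_P655352, the only one below 0) to 1.68. A_72_P165521 had 0.27. It, A_72_P655352, A_72_P518065 (1.43), A_72_P529263 (1.68) and the brightest probe were well above background on all 6 arrays. VDAC2 and VDAC3, the other pores of the VDAC family, had 1.14 ± 0.44 and 1.26 ± 0.53, with adjusted p = 0.118 and 0.148 in limma; they are named because they are the paralogs of VDAC1. By brightest probe PCK1 (gluconeogenesis) had -0.52 ± 0.44 and G6PC, which frees glucose from its phosphate, -0.43 ± 0.55, with adjusted p = 0.464 and 0.642 in limma. The other PCK1 probes that passed the filter were all positive, at 0.97, 1.46 and 0.58. G6PC reached the background flag on 0 of 3 TAG arrays and entered the fit only through the Exoseal arrays. Of 8 listed nucleotide sugar enzymes other than UGP2, the array named only 1, GFPT1, which did not pass the filter. The medians were 0.42 for glycogen, 0.34 for hypoxia-induced genes, 0.28 for adrenomedullin receptors, 1.20 for mitochondrial genes and -0.39 for pyruvate and gluconeogenesis genes, beside 0.03 for all features.

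**Figure D4:**
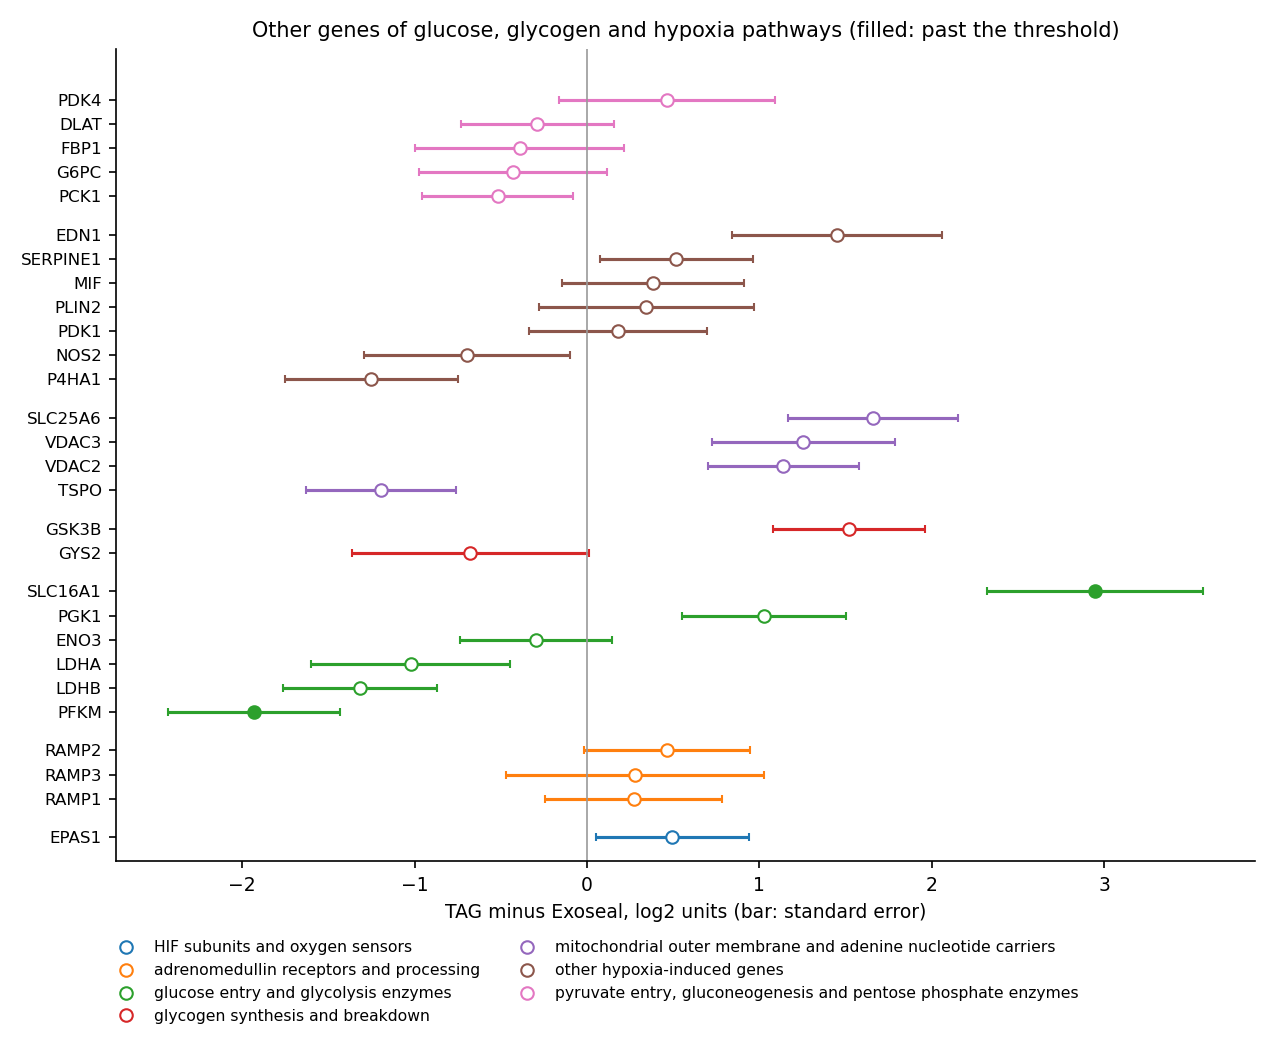
Difference (horizontal axis, TAG minus Exoseal in log2 units, bar for the standard error) of the 28 other pathway genes that passed the filter, coloured by list, with filled points for genes past the threshold. SLC16A1 (2.95) and PFKM (-1.93) are the filled points and lie at either end.

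Marker lists of cell types that an artery sample can hold were read beside these genes. Over all features 3.67% fell and 6.59% rose, and the counts below are to be read against that. Of 5 macrophage and monocyte markers tested 3 fell (LYZ, AIF1 and CD86), while CD14 and CD163 had 0.23 and 0.10. CD86 and CD14 were each well above background on 1 of 3 TAG arrays, and LYZ, AIF1 and CD163 on all 6 arrays. The summed level of the list, in multiples of the 75th percentile, was 11.97 to 18.9 on TAG arrays and 41.9 to 82.8 on Exoseal arrays. Of 4 smooth muscle markers 2 rose (ACTA2 and DES), with sums of 448 to 528 and 247 to 274, while CNN1 had 0.73 and MYLK -1.37, and all 4 were above background on all 6 arrays. Of 8 skeletal muscle markers 1 rose (ACTA1, 2.48), with sums of 57.1 to 70.4 and 20.9 to 38.3. On TAG arrays ACTA1 had log2 levels of 5.57, 5.81 and 5.62, far above the rest of the list, so the sum there is mostly ACTA1. MYH4 was well above background on 0 of 3 TAG arrays, and MYH2 and TNNT3 on 1 of 3. Of these 8, 5 had a negative difference, among them MYH2 (-1.80), and the median was -0.65. Of 2 endothelial markers 1 fell (CDH5), with sums of 3.95 to 8.64 and 12.9 to 50.8. The adipocyte list had 0 of 3 past the threshold and overlapping sums of 80.8 to 92.5 and 81.5 to 122. Of 3 neutrophil markers 1 passed as lower (ARG1), with overlapping sums of 1.04 to 1.64 and 0.79 to 3.64. ARG1 reached the background flag on 0 of 3 TAG arrays and entered the fit only through the Exoseal arrays. The size of its fall is therefore not measured. S100A12 had 1.72 and S100A8 0.38. S100A9, which was not tested, reached the background flag on 0 of 3 TAG arrays. The part of these cells in the differences of the 7 genes was not tested.

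The genes most like each member were found among 1613 named genes, as the smallest root mean square difference between profiles over the 6 arrays after each was centred on its mean. For HIF1A they were ACTA1 (0.42 log2 units), TPM1 (0.50) and TOR1A (0.52), beside a median of 1.60 over all named genes. For VDAC1 they were TOR1A (0.14) and SYK (0.26), and for TPI1 VARS2 and CRK (0.22 each). For PYGL they were ARF6 (0.19) and IFN-DELTA-9 (0.23). GPI was closest to RBM38 (0.36) and then to UGP2 (0.40). UGP2 was closest to CDH5 (0.20) and IFI30 (0.25), and ADM to IFNGR1 (0.14) and MSX1 (0.16). Among the 7 genes themselves the closest pairs were GPI with UGP2 (0.40), TPI1 with PYGL (0.47) and HIF1A with VDAC1 (0.53), and the farthest was TPI1 with UGP2 (2.95). Profiles over 6 arrays in 2 groups are alike wherever 2 genes share the group difference, so these values describe likeness only.

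**Figure D5:**
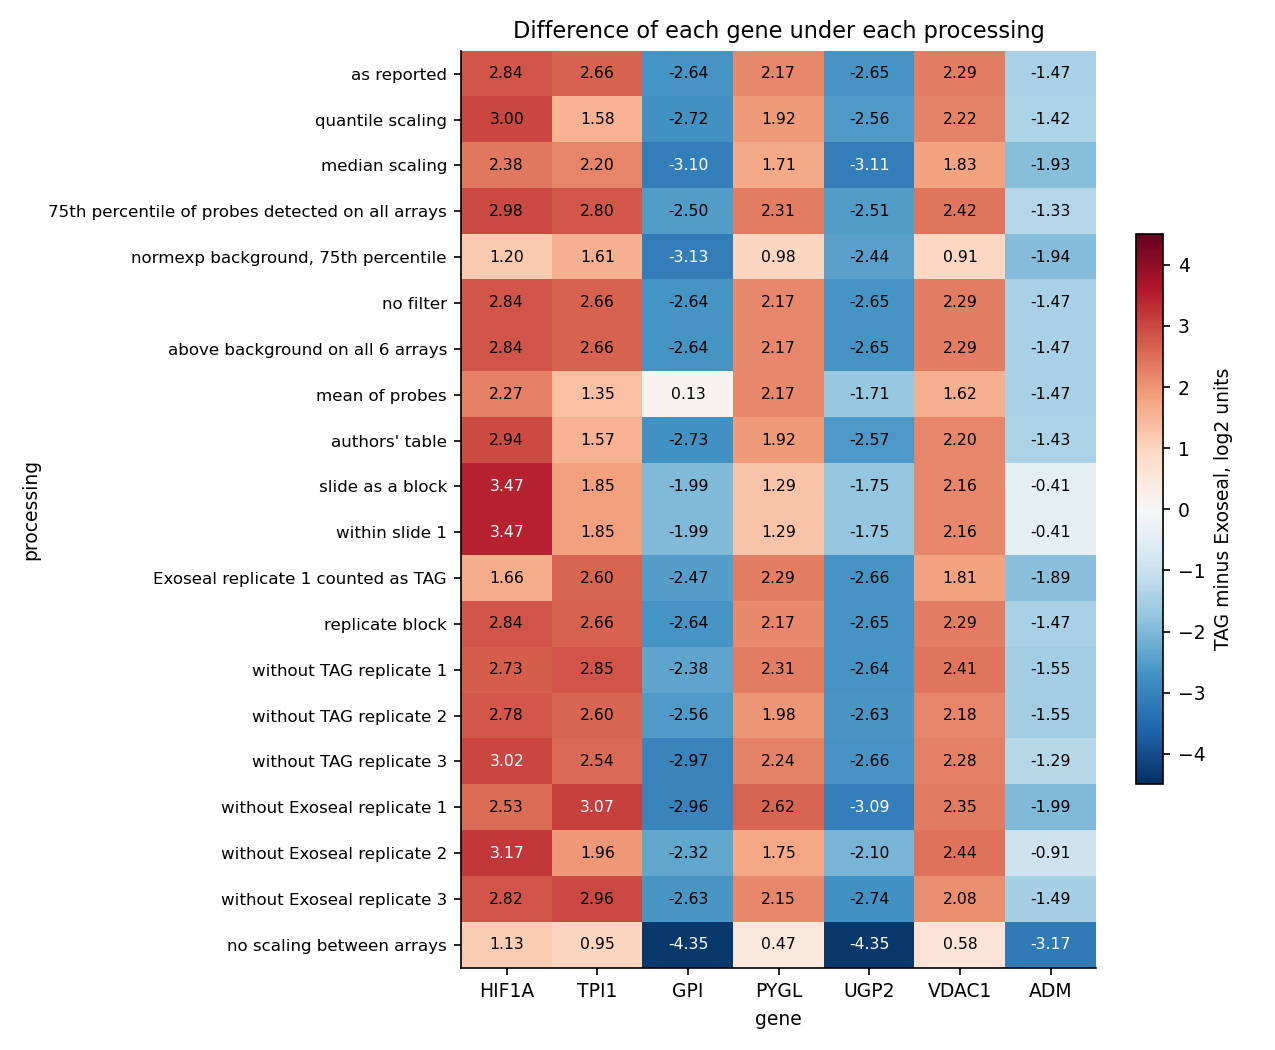
Difference of each gene (columns, TAG minus Exoseal in log2 units, red above 0 and blue below) under each processing (lines of the grid, the reported one at the top). HIF1A, TPI1, PYGL and VDAC1 stay above 0 and UGP2 and ADM below 0 throughout, and GPI is above 0 (0.13) with the mean of its probes.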

How the data were processed

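Per the file headers, the authors deposited scanner output of Agilent Feature Extraction 11.0.1.1, 1 intensity per spot, whose processed signal is background-subtracted within each array and not scaled between arrays. A deposited table of log2 values, scaled by the authors with a method not given in the sources used here, served as an alternative. Control spots and spots flagged as outliers were left out, spots of a probe were averaged on the log2 scale, and the 75th percentile of each array was subtracted. Probes were named through the RefSeq accessions of pig assembly Sscrofa11.1, which gave 1 symbol to 5435 of 43380 probes. Features well above background on at least 3 arrays were tested with limma 3.58.1 in R 4.3.3 (two-sided, Benjamini-Hochberg, threshold 0.05), with 1 feature per gene, its brightest probe. On simulated data the test recovered most of the largest changes. It missed more than it found at a size slightly above the largest difference of the 7 genes. The simulation changed a smaller share of features than passed in these data. The adjusted p depends on that share, so the recovery does not carry over to the fit reported here. A gene that did not pass may still differ. Other genes were named by rule: those past the threshold of each pathway list or the 2 of smallest p, and the most alike in profile. The 7 genes and all lists were chosen with earlier results of these data known. The number of arrays limits the precision. No coordinates or sequences are printed, since neither the array's build nor its probe sequences were at hand.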

Additional observations from a re-analysis of the deposited data

How the results depend on the processing

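The direction of HIF1A, TPI1, PYGL, UGP2, VDAC1 and ADM held under all 19 alternatives tried, and that of GPI under all except the mean of its probes (0.13). Not all of the 19 could change a difference, so their number does not measure robustness. The fits without the filter, with signal above background on every array and with the replicate block repeated the reported differences. The slide block repeated those of the shared slide alone. For PYGL and ADM, with a single probe each, the mean of probes changed nothing. Sizes did change: with normexp HIF1A had 1.20, TPI1 1.61, PYGL 0.98 and VDAC1 0.91, quantile scaling brought TPI1 to 1.58, the authors' deposited table gave it 1.57, and HIF1A had 1.66 with Exoseal replicate 1 counted as TAG. Normexp was run on the median spot signal, and the unscaled values, member counts and single probes were alternatives chosen after seeing the data. Motifs in promoters were not analysed here. Of 20857 features 2139 passed, against 2774 with quantile scaling, 1105 with median scaling (508 higher and 597 lower in TAG, against 1374 and 765), 958 with normexp (136 and 822), 10533 without scaling and 3529 with Exoseal replicate 1 counted as TAG. Quantile scaling gave 1361 higher and 1413 lower. The median difference of all features, 0.03, became -0.43 with median scaling, -0.08 with quantile scaling, -0.09 in the authors' deposited table, 0.17 when the percentile was taken over probes above background on every array, 0.17 with normexp and -1.67 without scaling. Without the filter limma called 0 features (13159 at an unadjusted p under 0.05), and the median difference of all features was 0.72.

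The replicate numbers did not pair the samples (correlations of deviations -0.18, 0.09 and -0.07, and not every sample matched its own number best), and with the replicate block limma called 0 features (5699 at an unadjusted p under 0.05), 0 of the 7 genes and 0 pathway genes. Leaving out 1 array gave 0 to 6957 features, 0 to 7 of the 7 genes and 0 to 7 pathway genes. The highest of each came without Exoseal replicate 1, where treatment and slide were fully joined. Of the 7 genes 6 passed as reported, 3 with median scaling, 3 with normexp, 3 without scaling, 2 with the mean of probes, 2 with slide as a block and 0 without the filter. With Exoseal replicate 1 counted as TAG 5 passed, but not the same genes. HIF1A and VDAC1 did not pass there (adjusted p = 0.191 and 0.0734 in limma), and ADM did (0.0271). Pathway genes past the threshold numbered 1 with median scaling, 0 without the filter, 0 with the mean of probes, 4 within slide 1 and 12 without scaling, against 2. The median of the 7 genes, 2.17, moved to 0.91 with normexp, 1.35 with the mean of probes, 1.29 with slide as a block or within slide 1, and 0.47 without scaling.

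Signs turned for RAMP1 (-0.19 with median scaling, -0.30 with normexp, -0.55 within slide 1 or with slide as a block, -0.18 to 0.68 leaving out 1 array, negative without Exoseal replicate 2, and -1.44 without scaling), GYS2 (0.084 with normexp, 0.83 with the mean of probes, 0.70 with Exoseal replicate 1 as TAG, 0.13 without it) and EPAS1 (-0.071 within slide 1 or with slide as a block, -1.21 without scaling). They also turned for G6PC with normexp (0.56), and with the mean of probes for PFKM (0.51), P4HA1 (0.57) and PCK1 (0.86). For PFKM and PCK1 that mean took in a probe that did not pass the filter. Without scaling signs also turned for GSK3B (-0.19), EDN1 (-0.26), RAMP2 (-1.24), SLC25A6 (-0.050), VDAC2 (-0.57), VDAC3 (-0.45) and HIF1A probe A_72_P585741 (-0.018). UGP2 probe A_72_P427819 was positive with normexp (0.55), and TPI1 probe A_72_P073361 negative with median scaling (-0.11). The cause was not tested.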
